A study of Mus musculus with 14 samples.

Results

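Mouse embryonic fibroblasts (MEFs) that had received SKO together with HDAC7 were compared at day 10 and at day 6, with 2 arrays at each day. These 4 arrays are all the SKO+HDAC7 arrays among the 14 of the series, and were chosen by their titles alone. The cells were of the ICR strain, were grown in medium for mouse embryonic stem cells, and were freed of feeder cells before lysis, per the labels' protocols. The groups set beside SKO+HDAC7 were SKO+MEF2C (2 arrays at day 10 and 2 at day 6), SKO with an empty vector named Flag (2 and 2) and GFP without SKO (1 and 1). By their labels all 3 SKO groups received SKO and the GFP cells did not. SKO is left as an abbreviation in the labels; in reprogramming work it usually means Sox2, Klf4 and Oct4, the last encoded by Pou5f1. They do not say what share of the cells took up a vector, so each value is a mean over a transduced population. The 2 arrays of a group are numbered as experiments 1 and 2. Whether they were separate cultures is not stated, so the p-values describe the spread between arrays, and that spread may be technical.

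HDAC7 is a class IIa histone deacetylase. Enzymes of this class have little catalytic activity of their own, recruit HDAC3 and corepressors, and bind MEF2 transcription factors, whose target genes they repress, in muscle above all. Fibroblasts driven toward pluripotency are known to pass through a mesenchymal-to-epithelial transition, in which E-cadherin, EpCAM and keratins are gained while Snail-family repressors, collagens and the contractile apparatus of fibroblasts are lost. Genes of the pluripotency network usually follow later.

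Replicate arrays correlated at 0.994 to 0.997 over all genes. The SD of the difference between 2 replicate arrays was 0.122 in SKO+HDAC7 at day 10 and 0.133 at day 6. It was widest, 0.171, in SKO+Flag at day 10, a pair used when SKO+HDAC7 is set against SKO+Flag. All values are log2 expression after RMA, the summary method named in the submitters' processing notes, so a difference of 1 is a 2-fold change in signal. The median gene of SKO+HDAC7 lay at 5.97 at day 10 and at 5.96 at day 6. No detection calls were used, so a level near or below that median is not shown to be above background.

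The added gene was present in SKO+HDAC7 at both days. Hdac7 lay at 11.38 and 11.17 at day 10, against 11.16 and 11.16 at day 6, above the 6.78 to 7.02 of the SKO+MEF2C arrays and the 6.88 to 7.01 of the SKO+Flag arrays. Its day change was 0.11 ± 0.08 (SE; limma adjusted p = 0.41). Pou5f1, the Oct4 gene, had 12.08 and 12.02 at day 10, against 12.01 and 12.01 at day 6 (0.04 ± 0.08, limma adjusted p = 0.81). The values of Klf4 were 9.18 and 9.02 at day 10, against 8.92 and 8.86 at day 6 (0.21 ± 0.08, limma adjusted p = 0.12). Sox2 was dim at both days, between 5.04 and 5.28, below the median gene (-0.08 ± 0.08, limma adjusted p = 0.56). Mef2c, the factor of the SKO+MEF2C group, had 6.31 and 6.48 at day 10, against 6.55 and 6.53 at day 6 (-0.14 ± 0.10, limma adjusted p = 0.38). None of the 5 transduced factors passed the test between days. In GFP cells, with 1 array per day, Pou5f1 lay at 5.18 at day 10 and 5.24 at day 6, far below its SKO+HDAC7 values. Sox2 (5.27 and 4.93) and Klf4 (8.66 and 8.93) in GFP cells overlapped their SKO+HDAC7 ranges, so of the SKO genes only Pou5f1 set the groups apart on these arrays. Which part of an added gene the probes read is not known here.

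Between day 6 and day 10, 2902 of 19935 genes changed in SKO+HDAC7 (14.6%; limma, Benjamini-Hochberg adjusted p under 0.05). Of these 1567 rose, 7.86% of the genes tested, and 1335 fell, 6.7% of them. Changes were mostly small: 159 genes moved by at least 1 on the log2 scale, 96 upward and 63 downward, and the smallest change that passed was 0.19. The median change of all genes was -0.03, and the median SE was 0.08. The number of calls depends on each of the few arrays. It was 1571 without day 10 replicate 2 and 1666 without day 6 replicate 1, against 2008 without day 10 replicate 1 and 2063 without day 6 replicate 2.

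The 15 largest rises were in genes of varied function. Epcam, an adhesion molecule of epithelial and pluripotent cells, led with 9.02 and 8.93 at day 10 against 6.05 and 6.0 at day 6, a 7.74-fold rise (2.95 ± 0.10, limma adjusted p = 5.3e-08). Cstdc2, a member of the stefin protease inhibitor family, rose by 2.93 ± 0.10, with 8.92 and 8.90 at day 10 and 5.85 and 6.10, near the median gene, at day 6. Slc7a3, a cationic amino acid transporter, had 9.61 and 9.76 at day 10 and 6.86 and 6.79 at day 6 (2.86 ± 0.07). In each of these genes the day 10 arrays stood more than 2 log2 units above both day 6 arrays. Aqp3, a water and glycerol channel of epithelia, rose by 2.31 ± 0.09, and Ltf, the iron-binding protein lactoferrin, by 2.27 ± 0.10. Slc17a6, a vesicular glutamate transporter of neurons, rose by 2.08 ± 0.09. The other genes among the 15 largest rises were Gbp4 (1.91), the neuropeptide precursor Trh (1.91), the calcium pump gene Atp2a3 (1.84), the prolyl hydroxylase gene Egln3 (1.72), the phosphodiesterase gene Pde9a (1.70), the interferon-inducible Ifitm1 (1.69), the proteoglycan gene Srgn (1.65), the receptor gene Erbb3 (1.65) and Pcx, the pyruvate carboxylase gene (1.62). At day 10 none of these 15 genes lay below the median gene, and at day 6, 5 did. For those 5, the day 6 signal is not shown to exceed background.

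Anxa10, an annexin, fell furthest of all genes: 5.09 and 5.12 at day 10 against 7.98 and 7.96 at day 6, a measured 7.28-fold drop (-2.86 ± 0.08, limma adjusted p = 1.7e-08). The cytokine gene Tslp fell by 1.85 ± 0.09 on the log2 scale, with 6.13 and 6.29 at day 10 and 7.97 and 8.15 at day 6. Tagln, an actin-binding protein of smooth muscle and myofibroblasts, had 6.71 and 6.82 at day 10 and 8.54 and 8.56 at day 6 (-1.79 ± 0.07). The choice of the 15 largest falls required that the day 10 and day 6 arrays not overlap. In Anxa10, Tslp and Tagln the replicates lay within 0.2 of each other. Thbs1, which encodes the matricellular protein thrombospondin 1, was one of the brightest: 10.87 and 10.83 at day 10, against 12.21 and 12.24 at day 6 (-1.38 ± 0.05). The elastic fibre gene Fbln5 was at 10.29 and 10.32, against 11.70 and 11.62 (-1.35 ± 0.06). The remaining falls among the 15 largest were those of Htr2a (-1.59), Col12a1 (-1.52), Nrcam (-1.50), Gask1b (-1.47), the collagen cross-linking enzyme gene Lox (-1.39), the protease gene Tll1 (-1.39), the hormone genes Stc1 (-1.37) and Cck (-1.36), the protocadherin gene Pcdh10 (-1.36) and the smooth muscle actin gene Actg2 (-1.35). At day 10, 3 of these 15 genes, Anxa10, Stc1 and Cck, lay below the median gene, and at day 6 none did. Their day 10 signal is not shown to exceed background, so their measured falls may understate the change. Related genes can share probes, which was not checked, so values of Cstdc2, Gbp4, Ifitm1, Actg2 and of the keratins below are uncertain to that extent.

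**Figure D1:**
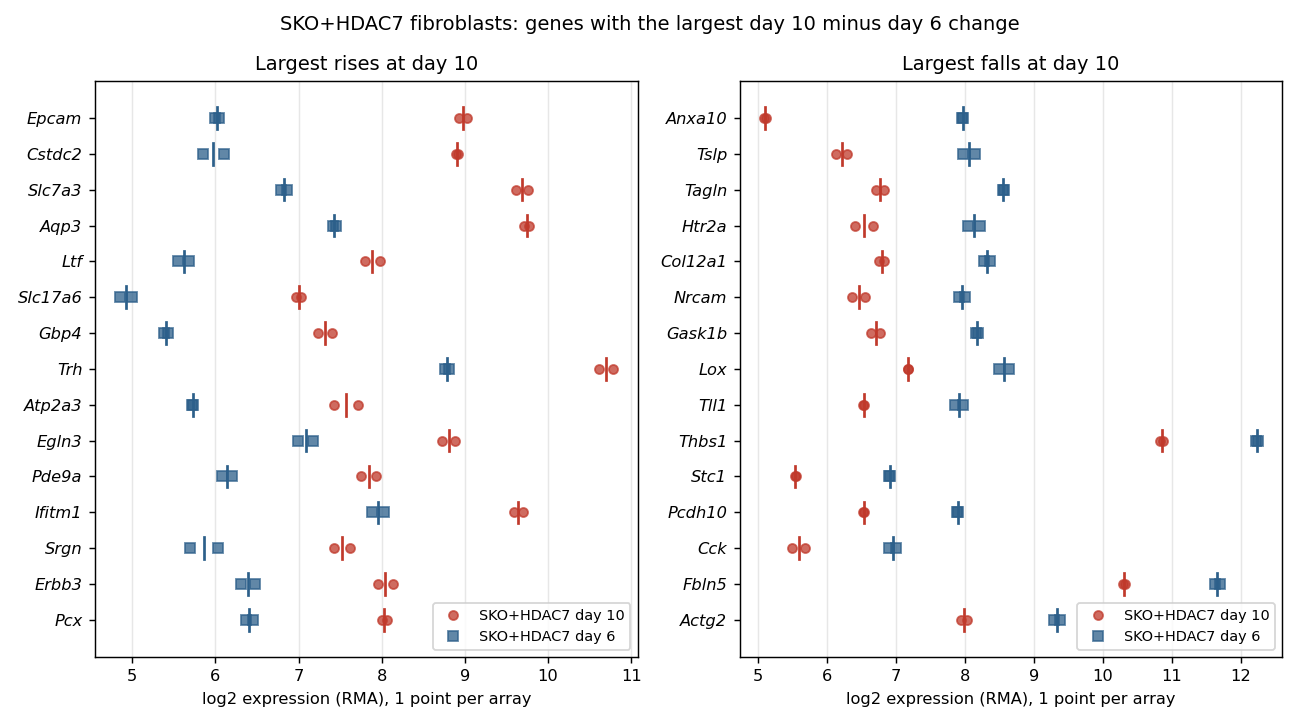
The 15 genes that rose most (left) and the 15 that fell most (right) between day 6 and day 10 in SKO+HDAC7. Each red circle is 1 day 10 array and each blue square 1 day 6 array, the short bars are group means, and the horizontal axis is log2 expression; in every row both day 10 arrays lie on 1 side of both day 6 arrays, as the choice of these genes required.

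Epithelial genes rose and none of the listed ones fell. Of 29 measured genes of epithelial junctions and their proteases, 15 rose, against 7.86% of all genes. The median change of the list was 0.27, against -0.03 for all genes. Cdh1, the E-cadherin gene, had 7.79 and 7.41 at day 10 and 6.37 and 6.32 at day 6 (1.25 ± 0.12, limma adjusted p = 4.5e-05). St14, which encodes the membrane protease matriptase, rose by 1.18 ± 0.09. Its inhibitors moved with it, Spint1 by 1.16 ± 0.14 and Spint2 by 1.05. Cdh3, the P-cadherin gene, was at -0.16 and did not pass the test. The count of 15 fell to 8 without day 6 replicate 1, without day 6 replicate 2 or without day 10 replicate 1, and to 10 without day 10 replicate 2. It was also 8 when only genes above the median level were tested, since many members lie near that level. In SKO+Flag 7 of the 29 rose, against 3.75% of all genes there, and in SKO+MEF2C 5 rose, against 1.85%.

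Keratins, the intermediate filaments of epithelia, rose with the junction genes: 9 of 18 rose, 0 fell, and the median change was 0.34. Over all genes 7.86% rose and 6.7% fell. The simple-epithelial keratin gene Krt8 had 8.23 and 8.06 at day 10 and 6.59 and 6.62 at day 6 (1.54 ± 0.15). Krt19 had 8.99 and 9.04 at day 10 against 7.58 and 7.76 at day 6 (1.35 ± 0.07, limma adjusted p = 6.7e-07). Krt18, the partner of Krt8 in filaments, rose by only 0.41 and stayed dim, at a mean of 5.81 at day 10. The stratified-epithelial genes Krt14 (0.88), Krt13 (0.88) and Krt16 (0.75) rose as well. Among 18 genes of the cornified envelope and keratinocytes, 8 rose and 0 fell, with Lgals7 (1.31 ± 0.06), Tgm3 (1.16 ± 0.13), Dmkn (1.07) and Sprr1a (0.97) the largest. The envelope proteins Ivl (-0.05) and Lor (0.03), made late in differentiation, did not pass the test. The count of 8 was 5 without day 6 replicate 1. In SKO+Flag 7 of the 18 keratins rose, against 3.75% of all genes there. Of the cornified envelope and keratinocyte genes 6 rose there and 1 fell. In SKO+MEF2C 3 keratins and 1 cornified envelope or keratinocyte gene rose, against 1.85% of all genes.

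Of 17 transcription and splicing regulators of epithelia, 5 rose and 0 fell, against 7.86% and 6.7% of all genes, and the median was 0.11. Ehf, an ETS-family factor of epithelia, had 7.83 and 8.08 at day 10 against 6.62 and 6.64 at day 6 (1.33 ± 0.10). The others were Tfap2a (0.59), Gata3 (0.45), Elf3 (0.39) and the splicing regulator Esrp1 (0.36), all with day 6 means near or below the median gene. Esrp2 (0.09) and Grhl1 (0.03) did not pass. The 5 calls became 3 without day 6 replicate 1 or 2, and 2 without day 10 replicate 1.

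The mean level of 6 defining epithelial markers was 7.36 and 7.25 on the day 10 arrays and 6.22 and 6.19 on the day 6 arrays, and 5 of the 6 rose. The mean of 6 fibroblast markers was 9.24 and 9.25 at day 10 and 9.48 and 9.48 at day 6. All 6 fibroblast markers stayed above the median gene at both days, though 3 fell and 1 rose between days. Lying above that gene does not by itself name a cell type, since 4 of 6 epithelial and 3 of 5 neural markers did so too. Vim, the mesenchymal filament gene, was at 12.69 at day 10 and 12.79 at day 6. In bulk RNA, fewer cells of a type and less RNA per cell cannot be told apart, and this holds for every gene group here.

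Mesenchymal regulators moved in both directions. Of 21, 5 fell and 2 rose, against 6.7% and 7.86% of all genes, with a median of -0.07. Snai2, a repressor of E-cadherin, had 6.92 and 6.85 at day 10 and 7.58 and 7.56 at day 6 (-0.68 ± 0.07). The limb and craniofacial mesenchyme homeobox genes Prrx2 (-0.80) and Prrx1 (-0.64) and the bHLH gene Twist2 (-0.64) fell, as did Twist1 (-0.40), which is named only to complete the count. Foxd1 (0.68) and Zeb1 (0.23) rose, and the Zeb1 call was lost under 13 of the alternatives tried. Snai1 was at -0.28 and did not pass the test.

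Fibroblast identity and matricellular genes fell: 15 of 25 fell and 1 rose, against 6.7% and 7.86% of all genes, with a median of -0.34. Besides Thbs1, the largest falls were those of Tnc, the tenascin C gene, with 9.19 and 9.07 at day 10 against 10.25 and 10.25 at day 6 (-1.12 ± 0.06), and of Thbs2 (-1.06). Postn (-0.95) and the surface marker gene Thy1 (-0.93 ± 0.07) followed. Pdgfra, a receptor gene used to mark fibroblasts, was at 0.13 and did not pass, whereas Pdgfrb fell by 0.56 on the log2 scale. The member that rose was Ptn, which encodes the heparin-binding growth factor pleiotrophin (0.84), named after its value was seen.

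Collagens changed unevenly. Of 27, 9 fell and 1 rose, against 6.7% and 7.86% of all genes, with a median of -0.20. Col1a1 had 10.91 and 10.76 at day 10 and 11.62 and 11.52 at day 6 (-0.74 ± 0.07), and Col1a2 fell by 0.57. Larger falls were those of Col12a1 (-1.52), which associates with collagen I fibrils, Col8a1 (-1.06) and Col11a1 (-0.75). Col3a1, the other main fibrillar collagen of soft tissue, went the opposite way, with 10.29 and 10.22 at day 10 against 9.48 and 9.50 at day 6 (0.76 ± 0.07, limma adjusted p = 6.5e-05).

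Genes of matrix assembly and turnover that passed the test fell more often than they rose. Of 15 lysyl oxidase and elastic fibre genes, 7 fell and 1 rose (median -0.24), against 6.7% and 7.86% of all genes. The falls were led by Lox (-1.39), Fbln5 (-1.35) and Fbn2 (-1.01), and elastin itself, Eln, was the member that rose, by 0.44. Among 12 small leucine-rich proteoglycans, Bgn (-0.88) and Prelp (-0.77) fell and Dcn, the decorin gene, rose (0.44). Of 22 matrix proteases and their inhibitors, 11 fell and 0 rose (median -0.28). Adamts1, a protease that cleaves proteoglycans, had 7.34 and 7.33 at day 10 and 8.50 and 8.48 at day 6 (-1.16 ± 0.06). The inhibitor gene Timp1 (-0.75) and the protease genes Adamts5 (-0.74), Mmp16 (-0.73) and Mmp13 (-0.60) also fell, while Mmp3 (-0.23) and Mmp9 (-0.09) did not pass.

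Integrins, the receptors for matrix, fell in most members: 11 of 19 fell and 1 rose, with a median of -0.33. Over all genes 6.7% fell and 7.86% rose. Itga4, the fibronectin and VCAM1 receptor subunit, had 9.01 and 9.04 at day 10 against 9.93 and 9.77 at day 6 (-0.83 ± 0.11). Itgb8 (-0.73), Itga8 (-0.67), Itgav (-0.66) and the collagen receptor gene Itga1 (-0.58) fell with it. Itga3, a subunit of the epithelial laminin receptor, was the one that rose (0.64 ± 0.09). The count of 11 was 7 without day 6 replicate 2 or without day 10 replicate 2. The laminin chain genes Lama5 (1.23 ± 0.08), Lamb3 (0.89) and Lama3 (0.72), whose products are found in epithelial basement membranes, rose, and so did Frem2 (0.99), while Nid2 (-0.67) and Fras1 (-0.37) fell. In this list of 17 basement membrane genes 5 rose and 4 fell, and the median was -0.06.

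**Figure D2:**
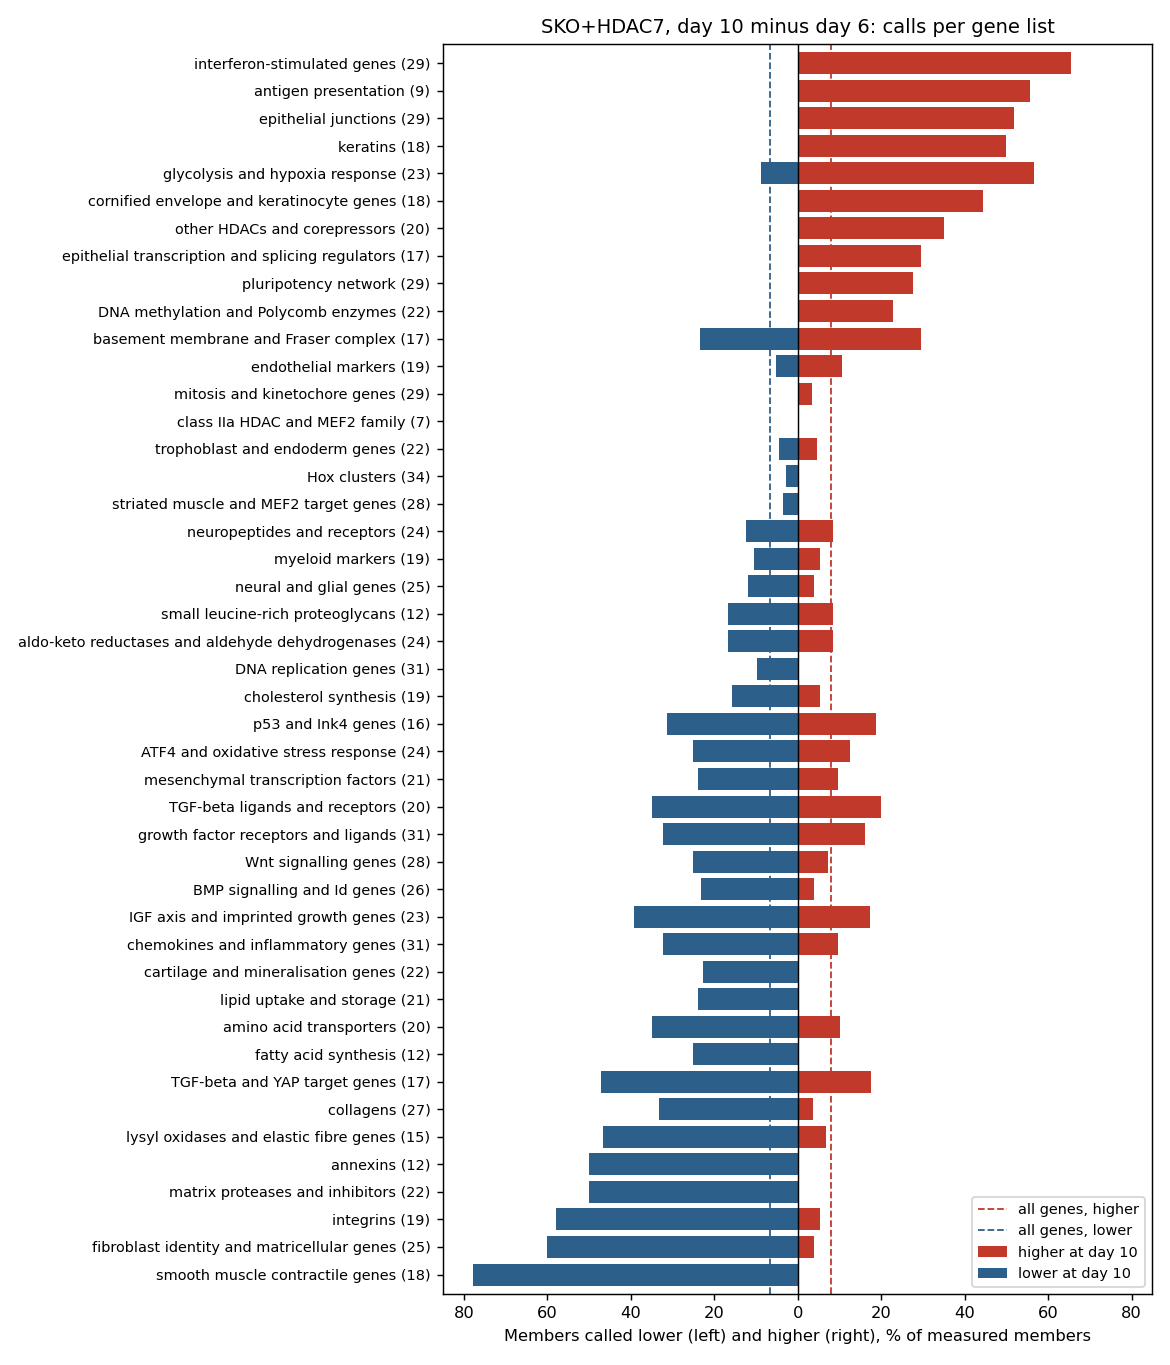
For each gene list, the percentage of measured members that rose (red, right) or fell (blue, left) between day 6 and day 10 in SKO+HDAC7, with the number of measured members in brackets and dashed lines at the percentages over all 19935 genes (7.86% and 6.7%). Interferon-stimulated genes, with 19 of 29 higher, stand at the top, and smooth muscle contractile genes, with 14 of 18 lower, at the bottom.

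Contractile genes of smooth muscle and myofibroblasts had the largest share of falls among the lists. Of 18, 14 fell and 0 rose, against 6.7% and 7.86% of all genes, with a median of -0.44. Acta2, alpha smooth muscle actin, had 9.64 and 9.71 at day 10 and 10.86 and 10.97 at day 6 (-1.24 ± 0.06, limma adjusted p = 6.7e-07). Myl9, the regulatory light chain of smooth muscle myosin, had 6.38 and 6.38 at day 10 against 7.50 and 7.67 at day 6 (-1.20 ± 0.09), and the calponin gene Cnn1 fell by 1.05 ± 0.09. All 5 of the largest falls, with Tagln and Actg2, were by more than 1. In SKO+MEF2C 10 of the 18 fell, against 1.23% of all genes there, and in SKO+Flag 15 fell, against 4.33% of all genes, with list medians of -0.39 and -0.52. Against SKO+MEF2C 3 members had a more negative change in SKO+HDAC7, as did 1.24% of all genes. No member's change differed from that in SKO+Flag, in a test of the difference that called 0.125% of all genes. By contrast, among 28 genes of striated muscle, which include known MEF2 targets, 0 rose and 1, the small heat shock protein gene Cryab (-0.80 ± 0.06), fell. Myog (0.06), Myod1 (-0.13) and Myf5 (-0.18) did not pass. None of the 7 measured class IIa HDAC and MEF2 genes passed, Hdac4 at -0.16 and Hdac5 at -0.08 included.

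The promoter of Myl9 is shown because it holds a CArG box, the site that serum response factor binds in many contractile genes. The sequence is the RefSeq window of 250 bases before to 50 after the start of the gene (GRCm38.p6, chr2:156775214-156775513, plus strand), with the CArG box in capitals:
Myl9: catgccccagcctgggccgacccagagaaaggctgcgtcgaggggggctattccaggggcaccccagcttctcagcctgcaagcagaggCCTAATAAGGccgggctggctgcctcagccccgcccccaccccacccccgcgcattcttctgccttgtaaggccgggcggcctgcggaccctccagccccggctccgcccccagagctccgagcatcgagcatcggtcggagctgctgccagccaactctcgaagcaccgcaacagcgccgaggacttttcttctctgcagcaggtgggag
A CArG box on either strand was found in 3 of the 15 contractile genes that had a window, and in 1.81% of 27025 genes. The 3 were Myl9, Cnn2 and Vcl, all of which fell, among 11 with a window that fell and 4 that did not pass. A match describes the letters of the window and is not a shown binding site, and the motif was picked after the values were seen.

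Interferon-stimulated genes formed the list with the largest share of rises: 19 of 29 rose, 0 fell, and the median change was 0.45. Over all genes 7.86% rose and 6.7% fell. Oas2, an activator of RNase L that senses double-stranded RNA, had 7.51 and 7.41 at day 10 and 6.0 and 6.0 at day 6 (1.46 ± 0.06, limma adjusted p = 3.1e-07). Gbp3, a guanylate-binding protein gene, had 8.03 and 8.21 at day 10 against 6.87 and 6.85 at day 6 (1.26 ± 0.11). Oasl2 (1.18 ± 0.08), Parp14 (1.09), Rtp4 (1.06) and Ifit1 (0.73 ± 0.10) rose, while Ifit2 (-0.23) and Ifit3 (0.00) did not pass. The day 10 and day 6 arrays did not overlap in any of the rising genes named here. In SKO+MEF2C 11 of the 29 rose, against 1.85% of all genes, and in SKO+Flag 13 rose, against 3.75% of all genes, with list medians of 0.31 and 0.35. No member of the list differed from SKO+Flag in the test of the difference, which called 0.125% of all genes. Against SKO+MEF2C 2 members had a more positive change in SKO+HDAC7, as did 0.963% of all genes. In GFP cells, with 1 array per day, Ifit1 lay at 8.16 at day 10 and 7.22 at day 6, above every SKO+HDAC7 value. The other rising genes named here did not share this. Oas2 (5.61 and 5.42) and Gbp3 (6.34 and 5.87) lay in GFP cells below every SKO+HDAC7 value. Oasl2 (7.61 and 6.60), Parp14 (6.38 and 6.10) and Rtp4 (7.45 and 7.08) lay there below both SKO+HDAC7 day 10 values.

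Antigen presentation genes followed: 5 of 9 rose and 0 fell, against 7.86% and 6.7% of all genes, with a median of 0.60. They were the peptide-loading gene Tapbp (0.86 ± 0.07), the immunoproteasome genes Psmb8 (0.73) and Psmb9 (0.60), the trimming protease gene Erap1 (0.63) and the transporter gene Tap1 (0.60). The Psmb9 call was lost when any 1 of the 4 arrays was left out. B2m, the light chain of class I molecules, was bright at both days and did not pass (0.04).

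The promoters of Gbp3, Irgm1 and Ifit1 are shown because they hold the core of the interferon-stimulated response element, searched on both strands as GAAA, any 2 bases and GAAA. Irgm1, an immunity-related GTPase gene chosen after its value was seen, rose by 1.01 ± 0.11. The windows, from RefSeq (GRCm38.p6), run 250 bases before to 50 after each start, at chr3:142559794-142560093 on the plus strand for Gbp3, chr11:48871371-48871670 on the minus strand for Irgm1 and chr19:34640639-34640938 on the plus strand for Ifit1. Capitals mark the matches, which overlap each other in Gbp3 and Irgm1:
Gbp3: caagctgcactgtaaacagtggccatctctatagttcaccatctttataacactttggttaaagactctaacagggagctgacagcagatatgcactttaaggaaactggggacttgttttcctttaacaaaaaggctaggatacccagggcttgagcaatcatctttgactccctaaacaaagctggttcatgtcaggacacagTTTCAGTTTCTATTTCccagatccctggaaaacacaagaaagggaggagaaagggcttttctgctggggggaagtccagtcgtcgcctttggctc
Irgm1: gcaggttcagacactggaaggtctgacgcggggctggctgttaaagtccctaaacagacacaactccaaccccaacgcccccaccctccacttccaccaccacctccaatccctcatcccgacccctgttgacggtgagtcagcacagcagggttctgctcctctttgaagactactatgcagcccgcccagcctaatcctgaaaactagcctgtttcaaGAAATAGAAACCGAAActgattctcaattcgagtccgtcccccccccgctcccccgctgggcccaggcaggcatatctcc
Ifit1: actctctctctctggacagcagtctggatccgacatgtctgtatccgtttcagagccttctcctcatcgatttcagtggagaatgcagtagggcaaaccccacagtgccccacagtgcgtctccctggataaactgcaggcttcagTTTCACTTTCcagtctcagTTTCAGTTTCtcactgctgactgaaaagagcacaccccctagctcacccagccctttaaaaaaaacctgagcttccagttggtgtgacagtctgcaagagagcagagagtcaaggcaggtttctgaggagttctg
The motif was present in 12 of the 19 interferon-stimulated genes that had a window (63.2%) and in 3.99% of 27025 genes. Among those with a window it was found in 8 of 12 that rose and in 4 of 7 that did not pass. The motif was picked after the values were seen, and a match is no more than a match of letters.

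Glycolysis and hypoxia response genes rose in 13 of 23 members and fell in 2, against 7.86% and 6.7% of all genes, with a median of 0.36. Slc2a1, the glucose transporter GLUT1, had 9.56 and 9.69 at day 10 and 8.42 and 8.49 at day 6 (1.17 ± 0.07, limma adjusted p = 1.7e-06). Egln3, which encodes an oxygen-sensing prolyl hydroxylase, rose by 1.72 ± 0.08, Aldoc, an aldolase gene, by 1.61 ± 0.10 and the mitophagy gene Bnip3 by 1.00 ± 0.11. Adm, the adrenomedullin gene and itself a hypoxia target, went the opposite way, with 6.48 and 6.44 at day 10 against 7.59 and 7.51 at day 6 (-1.09 ± 0.06). In SKO+Flag 8 of the 23 rose, against 3.75% of all genes there, and 1 fell, against 4.33%, with a list median of 0.04. In SKO+MEF2C 4 rose, against 1.85% of all genes, and 1 fell, against 1.23%, with a list median of 0.10.

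**Figure D3:**
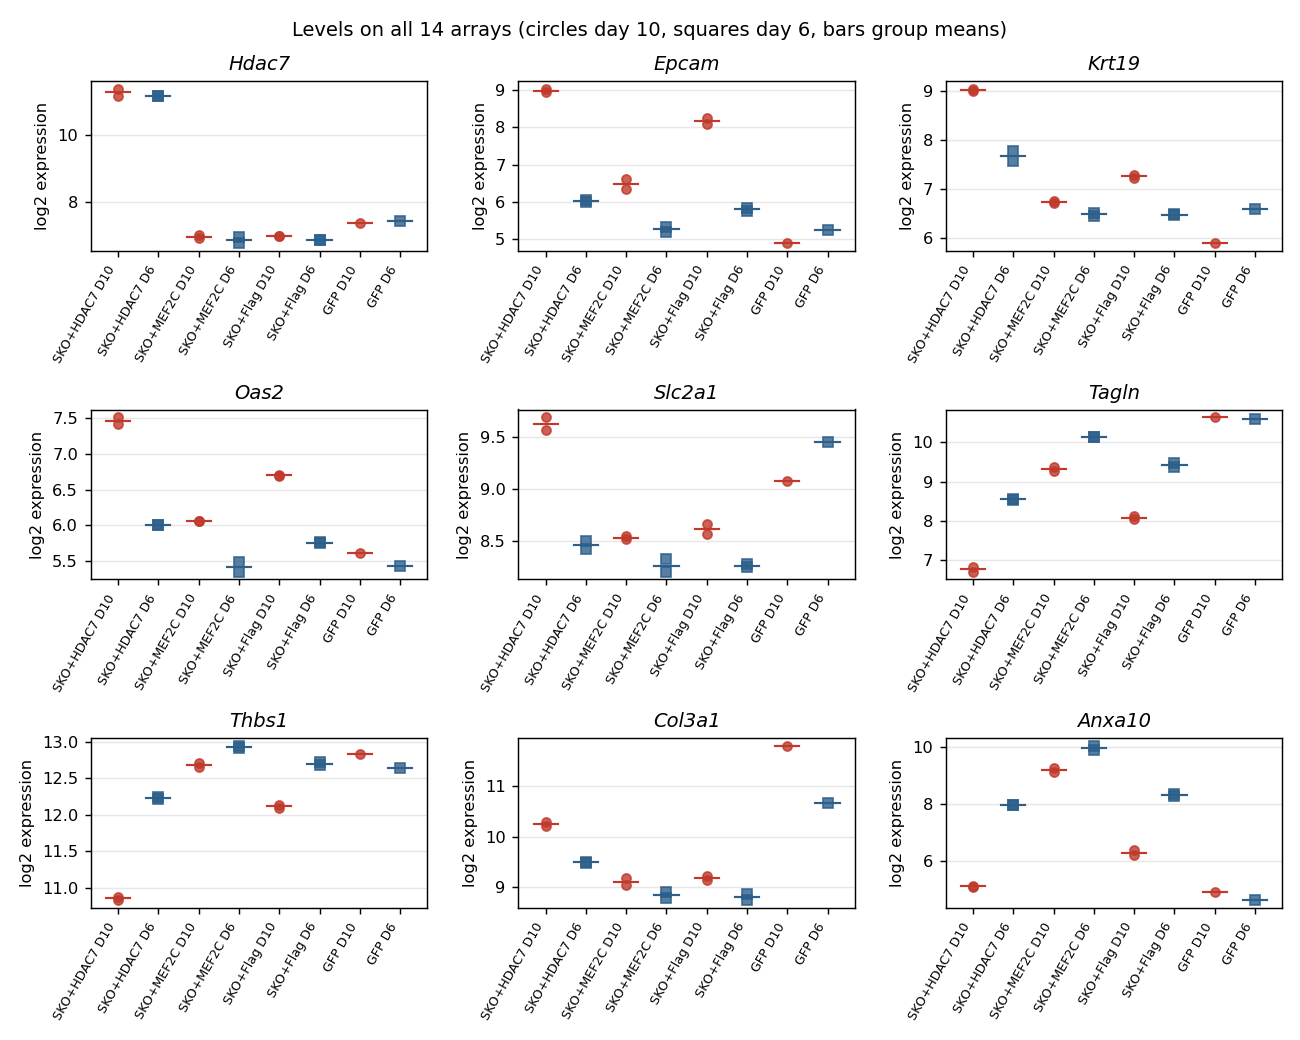
Log2 expression of 9 genes on all 14 arrays, by group: red circles are day 10 arrays, blue squares day 6 arrays and bars group means, with SKO+HDAC7, SKO+MEF2C, SKO+Flag and GFP from left to right. Hdac7 is flat between days; Epcam, Krt19, Oas2, Slc2a1 and Col3a1 are higher at day 10 in SKO+HDAC7, while Tagln, Thbs1 and Anxa10 are lower.

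Pluripotency genes rose in 8 of 29 members and fell in none, against 7.86% and 6.7% of all genes, but the median change was 0.04. Tfcp2l1, a transcription factor of naive pluripotency, had 8.12 and 8.13 at day 10 and 6.86 and 6.71 at day 6 (1.34 ± 0.08). Nr0b1, a nuclear receptor gene of the same state, had 6.20 and 6.31 at day 10 against 4.95 and 4.94 at day 6 (1.31 ± 0.09), and Fbxo15 rose by 1.02 ± 0.11. L1td1 (0.90) and Sall1 (0.74) rose too. Nanog, the core factor, passed with a small change, 5.61 and 5.63 at day 10 against 5.27 and 5.28 at day 6 (0.34 ± 0.08, limma adjusted p = 0.019), and remained below the median gene. The Nanog call was lost when any 1 of the 4 arrays was left out. The 6 defining markers of embryonic stem cells all lay below the median gene at both days. The count of 8 was 5 without day 6 replicate 1, without day 6 replicate 2 or without day 10 replicate 2.

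Of the chromatin genes listed here, every one that passed the test rose, though most did not pass. Over all genes 7.86% rose and 6.7% fell. Of 20 other HDAC and corepressor genes 7 rose and 0 fell (median 0.19), among them Rcor2, a CoREST corepressor gene (0.76 ± 0.09), and Hdac2, with 10.13 and 10.14 at day 10 against 9.60 and 9.61 at day 6 (0.53 ± 0.08). Hdac6 (0.43), Sin3b (0.46) and Sin3a (0.41) rose, while Hdac1 (0.20) and Hdac3 (0.04), the partner of class IIa enzymes, did not pass. The count of 7 was 4 without day 6 replicate 2. Of 22 DNA methylation and Polycomb genes 5 rose and 0 fell (median 0.12). They were the Polycomb cofactor gene Jarid2 (0.70 ± 0.10), Tet2 (0.50), Phc1 (0.47), Ezh1 (0.43) and Rnf2 (0.37). This count was 3 without any 1 of the 4 arrays. The DNA methyltransferase genes Dnmt1 (0.06), Dnmt3a (0.18) and Dnmt3b (0.04) did not pass.

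Signalling genes fell more often than they rose, whereas of all genes 7.86% rose and 6.7% fell. Among 20 TGF-beta ligands, latent binders, receptors and Smads, 7 fell and 4 rose (median -0.18). Ltbp2, a latent TGF-beta binding protein gene, had 6.35 and 6.23 at day 10 and 7.58 and 7.44 at day 6 (-1.22 ± 0.08), while its relative Ltbp4 had 7.68 and 7.38 against 6.37 and 6.53 (1.08 ± 0.11). The activin subunit gene Inhba (-0.88), Tgfb3 (-0.44) and Tgfb1 (-0.39) fell. The 4 rises were 2 without day 6 replicate 2 and 1 without day 10 replicate 1. Of 17 TGF-beta and YAP target genes 8 fell and 3 rose (median -0.07), with the tissue factor gene F3 at -1.01, Crim1 at -0.73, Ankrd1 at -0.62, Ccn2 at -0.37 and Ccn1 at -0.36.

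Among 26 BMP pathway genes 6 fell and 1 rose (median -0.19). Fst, which encodes the activin antagonist follistatin, had 8.79 and 8.71 at day 10 and 9.90 and 10.04 at day 6 (-1.21 ± 0.07). Grem1, a BMP antagonist gene, fell by 0.71, and the BMP target genes Id3 (-0.59) and Id2 (-0.54) fell as well. Of 28 Wnt genes 7 fell and 2 rose (median -0.13). The receptor gene Lgr5 (-1.0 ± 0.11) and the secreted modulators Sfrp2 (-0.89 ± 0.06) and Dkk2 (-0.85 ± 0.09) fell furthest, and Sfrp4 (0.58) rose. Among 31 growth factor receptors and ligands 10 fell and 5 rose (median -0.15). Erbb3, a neuregulin receptor gene, had 8.13 and 7.96 at day 10 against 6.48 and 6.31 at day 6 (1.65 ± 0.10), whereas Fgf7 (-0.96), Fgf2 (-0.83), Fgfr2 (-0.75) and Hbegf (-0.66) fell. The 5 rises were 3 without day 6 replicate 1, without day 10 replicate 1 or without day 10 replicate 2.

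Few cell cycle genes passed the test, which 14.6% of all genes passed. Of 31 DNA replication genes 0 rose and 3 fell, Ccne1 (-0.47), Rrm2 (-0.33) and Tyms (-0.27), with a median of 0.05. Of 29 mitotic genes 1, Ccnb2 (0.32), rose and 0 fell, with a median of 0.09. The proliferation marker Mki67 was at 0.06 ± 0.17 and did not pass. Among 16 p53 and Ink4 genes 5 fell and 3 rose (median -0.05), the falls including the p53 targets Ccng1 (-0.58), Zmat3 (-0.54) and Mdm2 (-0.34) and the rises being the cell cycle inhibitor genes Cdkn1b (0.67) and Cdkn1c (0.62) and the stress gene Sesn1 (0.65).

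Inflammatory, metabolic and growth genes moved in both directions, where of all genes 7.86% rose and 6.7% fell. Of 31 chemokines and inflammatory genes 10 fell and 3 rose (median -0.10): Il1rn, the interleukin 1 receptor antagonist gene, fell by 1.00 ± 0.06, Vcam1 by 0.96 ± 0.07 and the hyaluronan synthase gene Has2 by 0.90, while Saa3 rose by 0.97 ± 0.10 and Ccl2 by 0.44. Of 23 IGF axis and imprinted genes 9 fell and 4 rose (median 0.00). Igf2 had 7.96 and 7.89 at day 10 against 8.86 and 8.92 at day 6 (-0.97 ± 0.07), Igfbp7 fell by 1.17 ± 0.06 and Plagl1 by 0.69, and Peg10 rose by 0.65. The 4 rises were 1 without day 6 replicate 1 and 2 without day 10 replicate 2. Asns, the asparagine synthetase gene, fell by 0.83 ± 0.06 in a list of 24 ATF4 and oxidative stress genes with 6 falls and 3 rises, whose falls were 2 without day 6 replicate 2 and 3 without either day 10 array. Of 20 amino acid transporters 7 fell, Slc7a5 (-0.73) and Slc38a4 (-0.71) furthest, and 2 rose, Slc7a3 by far the more.

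Of the lipid lists, 3 of 12 fatty acid synthesis genes fell, the malic enzyme gene Me1 by 0.84 ± 0.06, and of 19 cholesterol synthesis genes 3 fell and 1 rose. Of 21 lipid uptake and storage genes 5 fell, Lpl (-0.67) furthest, and this count was 1 without day 6 replicate 1, day 6 replicate 2 or day 10 replicate 2 and 3 without day 10 replicate 1. Among 24 aldo-keto reductases and retinoid-handling genes 4 fell and 2 rose; Akr1c18, a progesterone-metabolising enzyme gene whose probes may be shared with its neighbours, had 9.51 and 9.56 at day 10 and 10.81 and 10.78 at day 6 (-1.26 ± 0.06). Of 12 annexins 6 fell and 0 rose, and apart from Anxa10 they fell by 0.43 (Anxa6) or less. Of 22 cartilage genes 5 fell, Col2a1 (-0.63) furthest, and this was 2 without day 10 replicate 2. Of 34 Hox genes 1 fell, Hoxc8 (-0.33), and 0 rose. The shares over all genes were 7.86% for rises and 6.7% for falls.

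Defining markers of macrophages and endothelium were mostly below the median gene. Of 6 macrophage markers 0 rose and 1, Cd68, fell (-0.75 ± 0.09), and the other 5 lay below the median gene at both days. In the longer list of 19 myeloid genes Cd68 and Cd53 (-0.43) fell and Itgam (0.27) rose. Of 6 endothelial markers 1 rose, the angiopoietin receptor gene Tek, with 9.08 and 9.21 at day 10 against 7.92 and 7.85 at day 6 (1.26 ± 0.09), and the other 5 lay below the median gene. Cd34, a sialomucin gene of vascular and progenitor cells, rose by 1.14 ± 0.09. Of 25 neural genes 3 fell, Gap43 (-0.87), Nefl (-0.46) and Stmn2 (-0.32), and 1, Mbp (0.24), rose. Of 24 neuropeptide and receptor genes 3 fell and 2 rose, with Trh and Npy (0.67) up and Cck, Tac1 (-0.64) and Pdyn (-0.28) down. Among 22 trophoblast and endoderm genes Gata3 rose and Cubn (-0.68) fell. Since 7.86% of all genes rose and 6.7% fell, counts this small are not read as results about these lists.

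The day changes of the other SKO groups were set beside that of SKO+HDAC7. The SKO+Flag and SKO+MEF2C comparisons of day 10 with day 6 share no array with it. In SKO+Flag 1610 genes changed (8.08%), 747 higher (3.75%) and 863 lower (4.33%), and in SKO+MEF2C 614 changed (3.08%), 369 higher (1.85%) and 245 lower (1.23%). Of the 1567 genes that rose in SKO+HDAC7, 535 also rose in SKO+Flag, which is 34.1% of the SKO+HDAC7 list and 71.6% of the SKO+Flag list, and 2 fell there. Of the 1335 that fell, 594 fell in SKO+Flag (44.5% of the one list and 68.8% of the other) and 2 rose. In SKO+MEF2C the shared genes were 259 higher (16.5% and 70.2%) and 181 lower (13.6% and 73.9%).

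The sizes were compared over genes chosen in each group. Over the genes that rose in SKO+HDAC7 the median change was 0.40 in SKO+HDAC7, 0.14 in SKO+MEF2C and 0.20 in SKO+Flag. Over those that fell the medians were -0.38 in SKO+HDAC7, -0.12 in SKO+MEF2C and -0.25 in SKO+Flag. Over the 747 genes chosen for rising in SKO+Flag, however, the median was 0.44 in SKO+HDAC7 and 0.45 in SKO+Flag. Over the 863 that fell in SKO+Flag it was -0.38 in SKO+HDAC7 and -0.41 in SKO+Flag. For the 369 genes that rose in SKO+MEF2C the medians were 0.45 in SKO+HDAC7 and 0.48 in SKO+MEF2C. For the 245 that fell there they were -0.53 in SKO+HDAC7 and -0.44 in SKO+MEF2C, larger in SKO+HDAC7. A group that chooses its genes has its own changes raised by that choice, so none of these pairs of medians is a test. In GFP cells, with 1 array at each day, the median change of the SKO+HDAC7 genes was 0.01 both for those that rose and for those that fell.

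**Figure D4:**
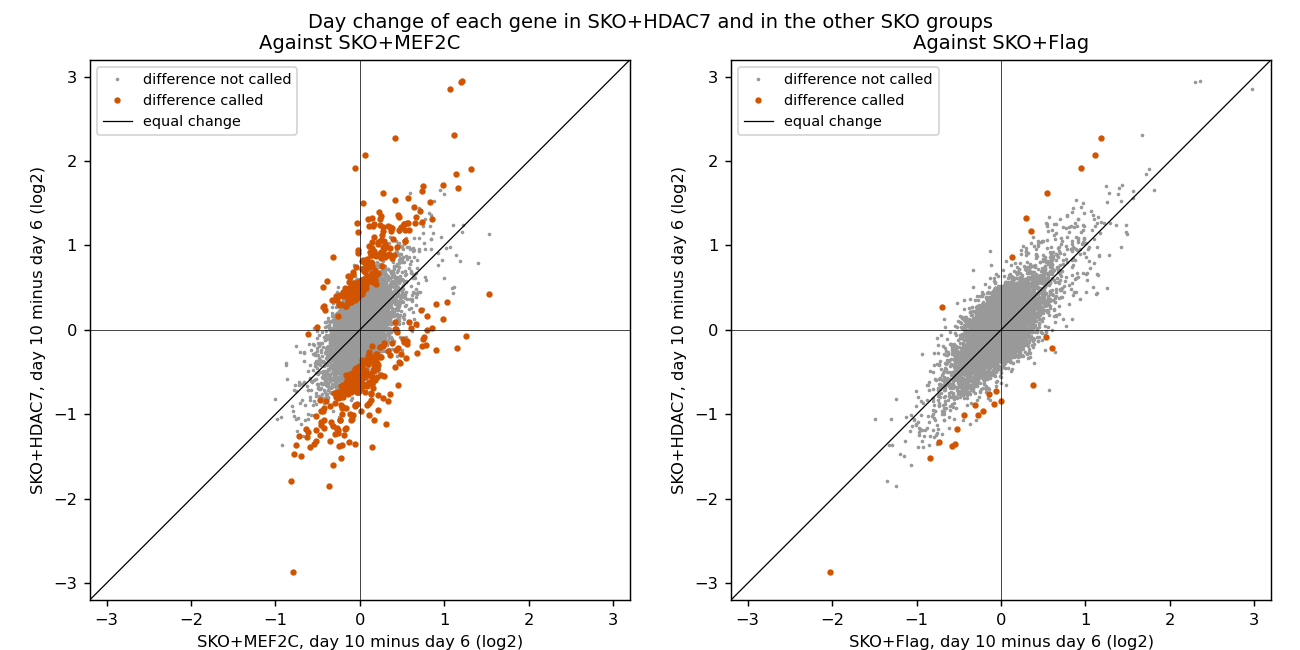
Each point is 1 of 19935 genes, with its day 10 minus day 6 change (log2) in SKO+HDAC7 on the vertical axis and in SKO+MEF2C (left panel) or SKO+Flag (right panel) on the horizontal axis; the diagonal marks equal change. Orange points are genes whose change differed between the groups, 440 against SKO+MEF2C and 25 against SKO+Flag.

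Whether a day change differed between SKO+HDAC7 and SKO+Flag was tested directly, as the difference of the 2 changes. The SKO+Flag day 10 pair is the one whose arrays differ most, and 1 of them weighs on the outcome. With all arrays 25 genes differed (0.125%; limma adjusted p under 0.05), 8 with a more positive change in SKO+HDAC7 (0.0401%) and 17 with a more negative one (0.0853%), and 2372 had an unadjusted p under 0.05. Without SKO+Flag day 10 replicate 2 the count was 483, of which 389 were more positive, and without its replicate 1 it was 26. Leaving out SKO+HDAC7 arrays gave 3 (day 6 replicate 1), 13 (day 6 replicate 2), 11 (day 10 replicate 1) and 0 (day 10 replicate 2, with 1692 at an unadjusted p under 0.05), and leaving out the SKO+Flag day 6 arrays gave 8 and 7. The genes described next passed with all arrays, and none of them passed in every subset, since 1 subset gave 0 calls.

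Genes with a more positive change in SKO+HDAC7 included Ltf, at 7.79 and 7.98 at day 10 and 5.68 and 5.56 at day 6 in SKO+HDAC7, against 6.69 and 6.87 at day 10 and 5.49 and 5.69 at day 6 in SKO+Flag. Its changes of 2.27 in SKO+HDAC7 and 1.19 in SKO+Flag differed by 1.08 ± 0.14 (limma adjusted p = 0.018). Pcx rose by 1.62 in SKO+HDAC7 and by 0.54 in SKO+Flag, a difference of 1.08 ± 0.12 (limma adjusted p = 0.0077). Ehf rose by 1.33 in SKO+HDAC7, whereas its change of 0.30 in SKO+Flag did not pass, and the difference was 1.02 ± 0.15 (limma adjusted p = 0.030). For Slc2a1 the changes were 1.17 in SKO+HDAC7 and 0.35 in SKO+Flag and the difference 0.82 ± 0.10 (limma adjusted p = 0.013). Both day 10 arrays of SKO+HDAC7 stood above both day 10 arrays of SKO+Flag in each of these 4 genes, while at day 6 the groups lay within 0.4 of each other. Msln, the mesothelial surface protein gene mesothelin, rose by 0.86 against 0.13 in SKO+Flag (difference 0.73 ± 0.09).

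Itgam, the integrin alpha M gene of myeloid cells, had changes of opposite sign. It had 6.04 and 6.06 at day 10 and 5.77 and 5.80 at day 6 in SKO+HDAC7, and 5.46 and 5.57 at day 10 and 6.25 and 6.18 at day 6 in SKO+Flag. Its changes of 0.27 in SKO+HDAC7 and -0.70 in SKO+Flag differed by 0.97 ± 0.10 (limma adjusted p = 0.0076), all at levels near the median gene. The change in SKO+HDAC7 lost its call when any 1 of the 4 SKO+HDAC7 arrays was left out. Vegfd, a lymphatic growth factor gene, was the reverse: it fell by 0.65 in SKO+HDAC7 and rose by 0.38 in SKO+Flag (difference -1.03 ± 0.09, limma adjusted p = 0.0066). Its day 10 values were 7.19 and 7.20 in SKO+HDAC7, against 8.03 and 8.05 in SKO+Flag.

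Matrix genes were among those with a more negative change in SKO+HDAC7. Bgn, the proteoglycan biglycan, had 9.01 and 8.95 at day 10 and 9.82 and 9.90 at day 6 in SKO+HDAC7, against 10.25 and 10.27 at day 10 and 10.42 and 10.28 at day 6 in SKO+Flag (difference -0.79 ± 0.09, limma adjusted p = 0.013). Thbs1 fell by 1.38 in SKO+HDAC7 and by 0.58 in SKO+Flag (difference -0.79 ± 0.08, limma adjusted p = 0.0074). Fbln5 had changes of -1.35 in SKO+HDAC7 and -0.54 in SKO+Flag (difference -0.81 ± 0.09). In the same order Anxa10 had changes of -2.86 and -2.02 (difference -0.84 ± 0.11), Dkk2 had changes of -0.85 and 0.00 (difference -0.85 ± 0.13) and Vcam1 of -0.96 and -0.21 (difference -0.75 ± 0.10). Mgp, the matrix Gla protein that inhibits calcification, did not pass between days in SKO+HDAC7 (-0.22 ± 0.09) but rose by 0.60 in SKO+Flag (difference -0.82 ± 0.13, limma adjusted p = 0.045).

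**Figure D5:**
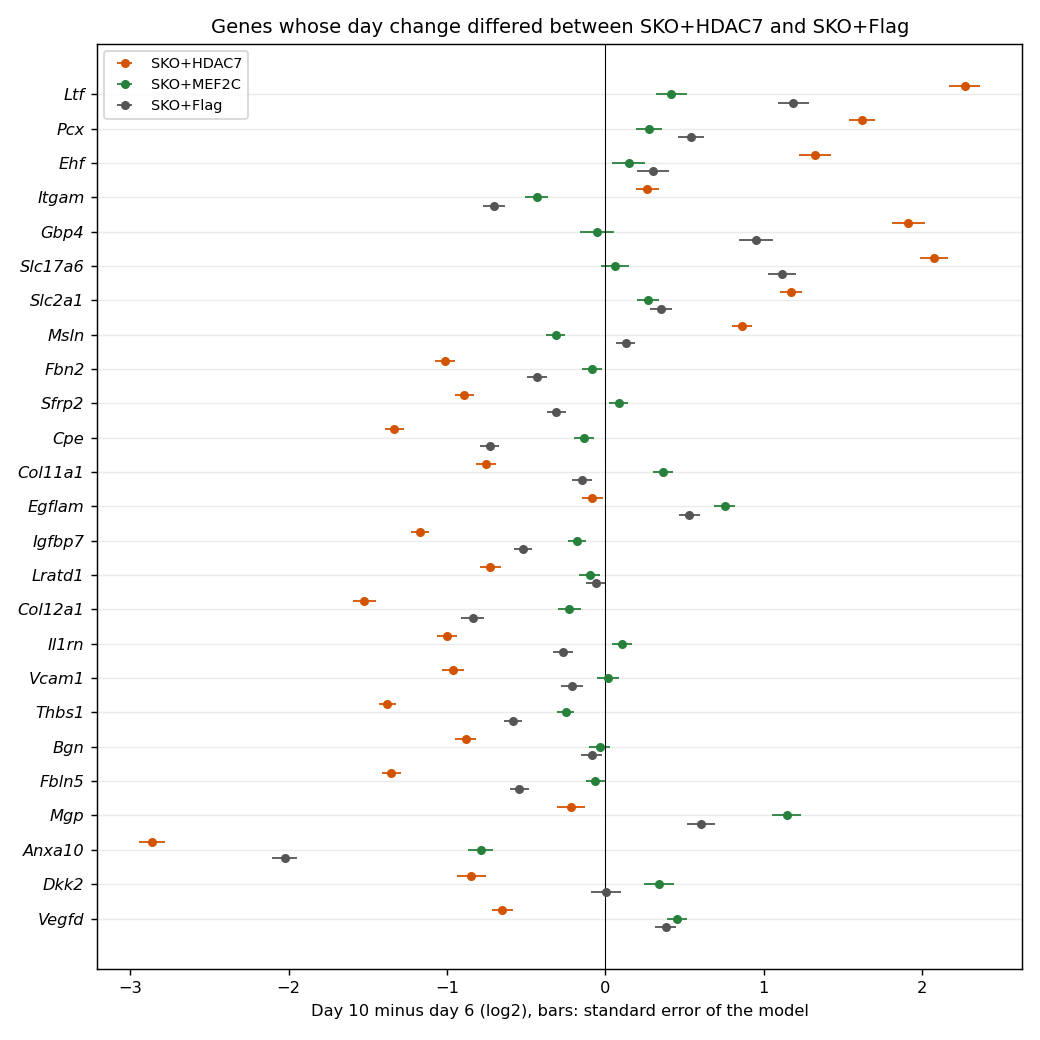
Day 10 minus day 6 change (log2, points) with its model SE (bars) in SKO+HDAC7 (orange), SKO+MEF2C (green) and SKO+Flag (grey) for the 25 genes whose change differed between SKO+HDAC7 and SKO+Flag. The 8 genes from Ltf to Msln have a more positive change in SKO+HDAC7 and the 17 below them a more negative one.

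Against SKO+MEF2C, 440 genes differed in their day change (2.21%), 192 with a more positive change in SKO+HDAC7 (0.963%) and 248 with a more negative one (1.24%), and 2915 had an unadjusted p under 0.05. Leaving out any 1 of the 8 arrays of these groups gave between 185 and 292. The test shares the SKO+HDAC7 arrays with the one against SKO+Flag. Slc17a6 had 6.97 and 7.03 at day 10 and 4.85 and 5.0 at day 6 in SKO+HDAC7, whereas the 4 SKO+MEF2C arrays lay between 5.09 and 5.18 (difference 2.01 ± 0.13, limma adjusted p = 5.5e-05). Gbp4 rose by 1.91 in SKO+HDAC7 and had -0.05 in SKO+MEF2C (difference 1.97 ± 0.15). Differences followed for Ltf (1.85 ± 0.14), Slc7a3 (1.79 ± 0.10), Epcam (1.74 ± 0.14), Cstdc2 (1.74 ± 0.14), the interferon-inducible Ifi27l2a (1.46 ± 0.16) and Pcx (1.35 ± 0.12). Of these, Epcam, Slc7a3, Cstdc2 and Ltf rose in SKO+MEF2C too, by 1.21, 1.07, 1.19 and 0.42.

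In the negative direction Anxa10 had 5.09 and 5.12 at day 10 and 7.98 and 7.96 at day 6 in SKO+HDAC7, against 9.11 and 9.24 at day 10 and 10.04 and 9.89 at day 6 in SKO+MEF2C (difference -2.08 ± 0.11, limma adjusted p = 1.9e-05). Tll1, a protease gene of the BMP1 family, fell by 1.39 in SKO+HDAC7 and had 0.15 in SKO+MEF2C (difference -1.53 ± 0.11). Tslp (-1.49 ± 0.13), Parm1 (-1.42 ± 0.15), Col12a1 (-1.29 ± 0.10) and Fbln5 (-1.29 ± 0.09) differed as well. For Mgp the SKO+HDAC7 change of -0.22 did not pass and the gene rose by 1.15 in SKO+MEF2C (difference -1.36 ± 0.13). Likewise the fatty acid transporter gene Cd36 had -0.07 in SKO+HDAC7 and rose by 1.26 in SKO+MEF2C (difference -1.33 ± 0.27). The lists with at least 5 called differences from SKO+MEF2C in 1 direction follow. Over all genes 0.963% were positive and 1.24% negative. Of 25 fibroblast identity genes 0 were positive and 8 negative, of 22 matrix proteases and inhibitors 0 and 6, and of 19 integrins 0 and 5. Of 29 epithelial junction genes 5 were positive and 0 negative, and of 23 glycolysis and hypoxia genes 5 and 1.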

How the data were processed

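The deposited values are log2 expression per probe set from 14 Affymetrix whole-transcript arrays hybridised with biotin-labelled cDNA, 1 per RNA sample, per the labels' protocols. The submitters' processing notes name RMA and Partek, with no version. Array medians lay between 5.68 and 5.76. Nothing was rescaled and no dim probe set was dropped; precision is limited by how few arrays there are. Of 28815 probe sets, 21780 had 1 gene symbol in the platform annotation, 1605 several and 5430 none here. Of the 21780, 21689 matched RefSeq (GRCm38.p6) by Entrez ID, 91 did not, and 0 symbols changed. Where a gene had several probe sets, the brightest on average over the 14 arrays stood for it (19935 genes, 998 with several probe sets).

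One group-means model over 8 groups was fitted in limma 3.58.1 (R 4.3.3), so that all groups shared 1 spread per gene (6 residual and 4.71 prior degrees of freedom). It was also run on simulated data with independent errors and known changes. Those data held no array effects, so that run does not show how the model performs on these arrays. Folds are 2 to the power of the log2 difference. The replicate numbers were not used to pair the days in this model. The correlation of replicate differences between day 10 and day 6 was 0.02 in SKO+HDAC7, -0.04 in SKO+MEF2C and -0.24 in SKO+Flag. These correlations do not settle whether the days were paired. Gene lists (46, with 979 of 1039 entries measured; the others were not analysed here) and members were chosen with earlier results of these data known.

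Named genes were the 5 transduced factors, the 15 largest called changes each way without overlap of the days, the 8 largest called differences each way for each other vector, and per list up to 5 called members by size and the first 3 listed. Predicted genes were passed over. Genes outside the rule are named only to complete counts, as a promoter example or as cell type markers. Alternatives were a trended robust prior, array weights, only the groups compared, the 12 SKO arrays, quantile normalization, median centring, the mean over probe sets, a filter to genes above the median level, a minimum difference of 1, an adjusted p under 0.01, the replicate number as a block, and leaving out each array. A free-text description that names a pre-iPSC sample on every array was not used.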

Additional observations from a re-analysis of the deposited data

Results flagged for a closer look

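A gene stands here because its day change in SKO+HDAC7 differed from its day change in another SKO group by the test of that difference itself (limma adjusted p under 0.05). Against SKO+Flag the differences (log2, SKO+HDAC7 change minus SKO+Flag change) were 1.08 for Ltf, 1.08 for Pcx, 1.02 for Ehf, 0.97 for Itgam, 0.96 for Gbp4, 0.96 for Slc17a6, 0.82 for Slc2a1 and 0.73 for Msln. On the negative side they were -1.03 for Vegfd, -0.85 for Dkk2, -0.84 for Anxa10, -0.82 for Mgp, -0.81 for Fbln5, -0.79 for Bgn, -0.79 for Thbs1 and -0.75 for Vcam1. In Itgam and Vegfd both groups passed the test between days, in opposite directions, but the Itgam call in SKO+HDAC7 was lost when any 1 of its 4 arrays was left out. In Mgp the SKO+Flag change passed and the SKO+HDAC7 change did not.

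Against SKO+MEF2C the differences (SKO+HDAC7 change minus SKO+MEF2C change) were 2.01 for Slc17a6, 1.97 for Gbp4, 1.85 for Ltf, 1.79 for Slc7a3, 1.74 for Epcam, 1.74 for Cstdc2, 1.46 for Ifi27l2a and 1.35 for Pcx. On the negative side they were -2.08 for Anxa10, -1.53 for Tll1, -1.49 for Tslp, -1.42 for Parm1, -1.36 for Mgp, -1.33 for Cd36, -1.29 for Col12a1 and -1.29 for Fbln5. Cd36 rests on the noisiest pair among them: its SKO+HDAC7 day 10 arrays lay at 5.57 and 6.15.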

How the results depend on the processing

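The 2902 calls between days became 159 at a difference of at least 1, 1514 at an adjusted p under 0.01, and 1571 to 2063 when 1 SKO+HDAC7 array was left out. The 25 differences from SKO+Flag became 66 with the trended robust prior, 16 with array weights, 2 with only the groups compared, 63 after quantile normalization (15 higher, 23.8%, against 8 of 25, 32%), 69 among genes above the median level, 4 at a difference of at least 1 and 5 at the stricter p. They ranged from 0 to 483 when 1 array was left out. The 440 differences from SKO+MEF2C became 43 and 151 under the last pair of thresholds, and 185 to 292 when 1 array was left out. With the replicate number as a block within each vector, the 3 counts were 2164, 0 (2034 at an unadjusted p under 0.05) and 169. With 1 block shared by the vectors they were 2898, 15 and 418. Replicate differences of SKO+Flag correlated at -0.24 between days, so a block with its numbers crossed was added after the data were seen, and it gave 2977, 5 and 374. The numbers are shared labels, not a known pairing. The cause of these shifts was not tested, apart from the smaller sample or stricter threshold that a setting itself imposes.

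No named result reversed, but several settings could not reverse one. The thresholds, the trended prior, the fit to only the groups compared and the replicate blocks leave each difference as it was. The GFP groups, with 1 array each, add nothing to the spread. The fit to the 12 SKO arrays therefore had to repeat the main counts (2902, 25 and 440). All these settings are included in the totals that follow. For the named genes between days, 4708 of 5104 values under the alternatives stayed on their side of the threshold, 380 lost the call and 16 gained it. Among the genes given with values above, the day call was lost without any 1 of the 4 SKO+HDAC7 arrays for Hoxc8, Itgam, Mbp, Nanog, Nefl, Pdyn, Psmb9, Rnf2, Tet2 and Zeb1. It was lost without 3 of the 4 in turn for Elf3, Krt18, Mdm2, Sfrp4 and Tyms. Of the differences from SKO+Flag 197 of 333 stayed and 136 lost the call, Dkk2 and Gbp4 under 14 settings each. Of those from SKO+MEF2C 324 of 333 stayed, and the 9 losses were all Cd36. With 2 arrays per group and no detection calls, small changes of dim genes are the least certain.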

Other observations

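GFP cells, with 1 array per day and no test, gave the following levels for genes chosen after their values were seen. Bst2, an interferon-inducible membrane protein gene, lay at 8.22 at day 10 and 7.44 at day 6 in GFP cells, and Irgm1 at 7.70 and 7.55. No SKO+HDAC7 level is given beside Bst2 and Irgm1, so they are not read as higher or lower in GFP cells. Adm lay at 9.28 and 8.99 in GFP cells, above all SKO+HDAC7 values, which were 6.44 to 7.59. Of the interferon-stimulated genes that did not pass the test between days, Stat2, Rsad2, Eif2ak2 and Ifit3 also held the promoter motif.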
